A study of Mus musculus with 4 samples.

Results

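The mouse Rab genes, which encode the largest branch of the Ras-like small GTPases, were followed in direct RNA reads of C2C12 myoblasts, an established mouse line that fuses into myotubes when serum is withdrawn. Members were all protein-coding genes whose symbol is Rab, a number and at most a letter and a further digit, a rule that uses no measured value, though the family was picked with earlier results of these data known. This gave 59 of the 56748 gene IDs counted. Native poly(A) RNA was read on nanopore flow cells in 4 libraries, of which 2 came from cells with a scrambled shRNA and 2 from cells with a cocktail of 3 shRNAs against *Hnrnpl*, an RNA-binding protein that acts in splicing. Both groups carried the wild-type genotype, a plasmid with an eGFP reporter and puromycin selection. Each group was 1 selected stable line sampled at different passages, so the p-values below measure the spread between passages of a line, and differences between the 2 selected lines cannot be told apart from effects of the shRNA. The sample labels place 1 scrambled and 1 knockdown library in each of 2 batches.

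Rab proteins switch between a GDP-bound form, held in the cytosol by GDP dissociation inhibitors, and a GTP-bound form on the membrane, where prenyl groups on cysteines at the C terminus anchor them. Exchange factors load GTP, GTPase-activating proteins speed its hydrolysis, and effectors such as tethers and motor adaptors bind the GTP form. Each Rab marks particular membranes, and in muscle cells these routes carry glucose transporters, adhesion molecules and lysosomal enzymes.

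The libraries held between 1229424 and 1676911 counted reads, and the 59 Rab genes together took between 0.314% and 0.346% of them. The targeted gene *Hnrnpl*, on chromosome 7 from 28507966 to 28521693 (GRCm39), had 358 and 656 reads in scrambled 1 and 2 against 242 and 258 in knockdown 1 and 2. Its log2 fold change was -0.78 ± 0.175 (SE), with an adjusted p of 0.0112 in edgeR, which was 0.164 without scrambled 2 and 0.283 without knockdown 1. Of 8 myoblast markers 7 had reads, with *Vim* at 17445 reads or more and *Myf5* at 113 or more per library, whereas *Pax7* had none and *Myod1* had 1 read in all. The summed level of this list was 15190 and 16050 CPM (counts scaled to the library size) in scrambled against 13540 and 14560 in knockdown, and nearly all of it was *Vim*. *Cdh15*, a myoblast cadherin, had 113 and 152 reads in scrambled against 25 and 14 in knockdown. *Chrna1*, a subunit of the acetylcholine receptor, fell by 1.53 and *Des*, the muscle intermediate filament desmin, by 0.56 on the log2 scale, with adjusted p-values of 3.4e-05 and 0.0308 in edgeR, the latter 0.0526 with the batch as a block. Of 6 differentiated muscle markers 5 had no reads, and *Acta1* had 16 and 9 reads in scrambled 1 and 2 against 7 and 9 in knockdown 1 and 2. Epithelial markers were at 0 in all 4 libraries, and the endothelial, leukocyte and adipocyte lists summed to at most 17 reads per library. The adipocyte list had 14 and 17 reads in scrambled against 4 and 2 in knockdown, mainly of *Cebpa*. The part of these marker differences in the values below was not tested, and in bulk RNA fewer cells of a type and less RNA per cell cannot be told apart.

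The shared feature of the family is the stretch of 7 residues, WDTAGQE, that lies at the nucleotide-binding site and takes part in GTP hydrolysis. It was found in the translated transcripts (GENCODE vM39) of 49 of the 59 members, and all 59 carried a cysteine within the last 4 residues, with 44 carrying at least 2. The 21 bases that encode this stretch are shown for some members that keep it and for members that differ from it, several of which are described below. Bases are 5′ to 3′ on the coding strand, and capitals mark codons for a residue other than that of the motif.
Rab7 (chr6:87982170-87982190, reverse strand): tgggacacagccggtcaagaa
Rab1b (chr19:5154744-5154764, reverse strand): tgggacacagctggtcaggag
Rab8a (chr8:72922330-72925102, forward strand): tgggacacggccggccaggag
Rab8b (chr9:66768161-66770706, reverse strand): tgggacacggcgggccaggaa
Rab32 (chr10:10426693-10433601, reverse strand): tgggatATCgcgggacaggaa
Rab38 (chr7:88079799-88099696, forward strand): tgggacATTgctggtcaagaa
Rab29 (chr1:131797730-131798425, forward strand): tgggatATTgcagggcaggag
Rab28 (chr5:41855775-41855795, reverse strand): tgggatATAGGAgggcagACA
Rab24 (chr13:55468976-55469205, reverse strand): tgggacacagcaggtTCCgag
Coordinates are GRCm39. All stretches are coding. Those of *Rab8a*, *Rab8b*, *Rab32*, *Rab38*, *Rab29* and *Rab24* cross a splice junction, so their coordinates span an intron, while the others lie in a single exon. *Rab32*, *Rab38* and *Rab29*, which form a group linked to lysosome-related organelles, differ from the motif in 1 residue, as does *Rab24*, and *Rab28* differs in 3. Among the 47 members that keep the motif and whose bases were read, 37 distinct versions of the 21 bases occurred, so members with the same residues mostly used different codons.

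Of the 59 members, 12 had no reads in any library, 13 had reads but too few for a test, and 34 were tested. The tested members had at least 33 reads over the 4 libraries and the untested ones at most 30. The annotated transcripts of all 59 aligned to the genome with a mapping quality of 60 when whole, and of 58 or more with their last 800 bases alone. These were annotated sequences and not reads, so this does not show how the reads themselves mapped. *Rab1a*, *Rab1b* and *Rab2a*, which act between the endoplasmic reticulum (ER) and the Golgi, had 2129, 2126 and 2049 reads over the 4 libraries. With *Rab7*, the late endosome Rab, at 1513 reads and *Rab34*, a Golgi and cilium Rab, at 1199, these 5 genes took 48.5% of all Rab reads, and the first 10 took 70.0%. Per kilobase of transcript, the order of the mean level was *Rab7* at 211 CPM per kb, *Rab1b* at 188, *Rab1a* at 116, *Rab34* at 103 and *Rab2a* at 86.3. A direct RNA read stands for 1 molecule whatever its length, and without division by length the mean level was 376 CPM for *Rab1a*, 370 for *Rab1b*, 363 for *Rab2a*, 269.5 for *Rab7* and 208 for *Rab34*.

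Across the family, 1 gene passed the test between knockdown and scrambled. A gene was called at an adjusted p under 0.05 in edgeR where the log2 fold change also exceeded 0.5 in size and the normalized counts averaged over 10. By this rule 1 of 34 tested members (2.94%) was called, *Rab32*, which was higher, against 5.55% of the 8670 genes tested. It was the only member called higher, where 2.33% of all genes were called higher, and 0 members were called lower by edgeR or DESeq2, where edgeR called 3.22% of all genes lower. An unadjusted p under 0.05 was reached by 9 members (26.5%) against 21.8% of all genes, 5 of them higher, where 10.3% of all genes were, and 4 lower, where 11.5% were. The groups were separate in normalized counts, with no overlap, for 18 members (52.9%) against 52.4% of all genes. The last 2 shares lay near the background, and the share called comes from 1 gene. The median log2 fold change was 0.06 over the tested members and 0.00 over all genes, 28 members had an absolute log2 fold change under 0.5, and for 26 the 95% interval lay within 1 of 0 on the log2 scale. The genes tested on a chromosome did not all centre on 0 (the median was 0.28 on chromosome 6, 0.24 on chromosome 10 and -0.37 on chromosome 9), and values from a second fit with these medians as an offset are given below for several members. In that fit 4 members had an unadjusted p under 0.05.

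**Figure D1:**
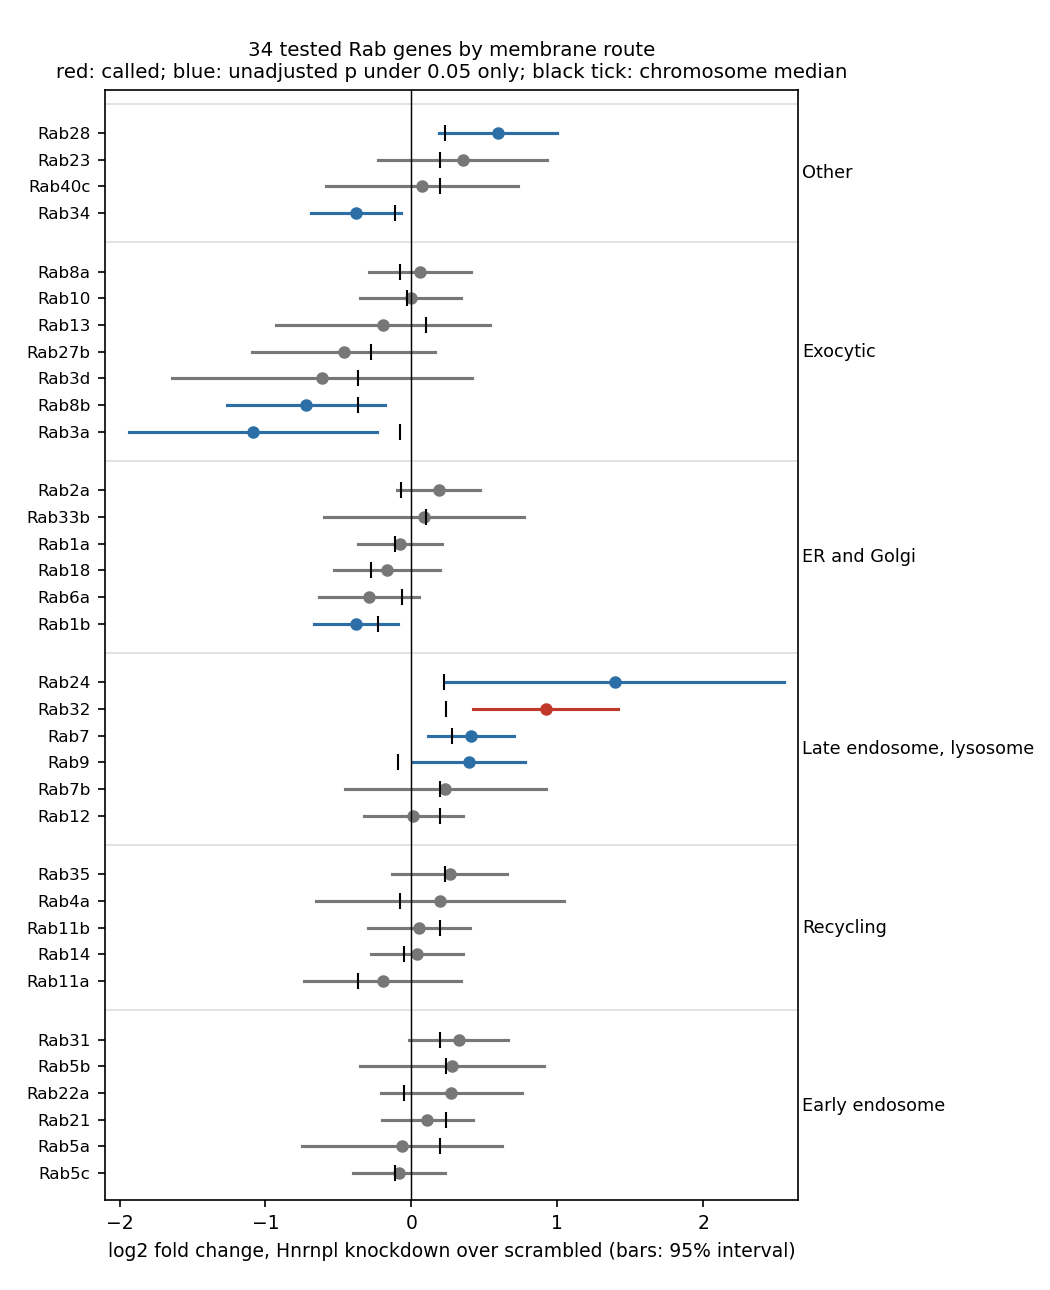
Log2 fold change of knockdown over scrambled (x axis) for the 34 tested Rab genes grouped by membrane route, with 95% intervals from edgeR, 2 libraries per group. Only *Rab32* (red) was called, the 6 late endosome members all lie above 0, and black ticks give the median of all genes tested on the same chromosome.

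The late endosome and lysosome group has 9 members, of which 6 were tested. All 6 had a positive log2 fold change, from 0.01 to 1.39 with a median of 0.40, and 4 had an unadjusted p under 0.05, against 10.3% of all genes tested with such a p and a higher value. With the chromosome medians taken out the median was 0.31 and 5 of the 6 were positive. *Rab32*, which guides enzymes to melanosomes and other lysosome-related organelles and binds mitochondria as an anchor of protein kinase A, had 47 and 39 reads in scrambled 1 and 2 against 72 and 70 in knockdown 1 and 2. Its normalized counts of 49.3 and 32.8 lay below the 71.8 and 81.9 of knockdown, so the groups did not overlap. It rose 1.89-fold, a log2 fold change of 0.92 ± 0.237 (SE) with an adjusted p of 0.0267 in edgeR, and within batch 1 and batch 2 the difference was 0.54 and 1.30 on the log2 scale. *Rab32* lies on the reverse strand of chromosome 10 from 10419907 to 10434013, and its exons overlap no other annotated exon.

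The call of *Rab32* ended under several settings, while its sign stayed positive in all 13. With the chromosome medians taken out its log2 fold change was 0.68 and its adjusted p 0.146. DESeq2 gave adjusted p-values of 0.161 and 0.514 with a local and a parametric fit of the dispersions, at log2 fold changes of 0.91 and 0.91. In edgeR the adjusted p was 0.234 without scrambled 2, 0.192 without knockdown 1, 0.111 without knockdown 2 and 0.00297 without scrambled 1, at log2 fold changes of 0.63, 1.01, 0.83 and 1.22. In each of these fits an arm holds 1 library, which is assumed to vary like the other group, and over all genes the calls went from 481 to 20 without knockdown 1. Over all 13 alternatives the adjusted p ran from 0.00297 to 0.514 and was under 0.05 in 7.

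*Rab7*, which directs late endosomes to fusion with lysosomes, had normalized counts of 331 and 325 in scrambled against 461 and 408 in knockdown. The groups did not overlap, and the log2 fold change was 0.41 ± 0.14 (SE), with an unadjusted p of 0.0093 and an adjusted p of 0.0942 in edgeR. Since *Rab7* lies on chromosome 6, where the median was 0.28, its value fell to 0.13 with that median taken out. *Rab9*, which returns mannose 6-phosphate receptors from late endosomes to the Golgi, had 75.4 and 75.8 in scrambled against 107 and 91.2 in knockdown. Its log2 fold change was 0.39 ± 0.184 (SE), with an unadjusted p of 0.0456 and an adjusted p of 0.218 in edgeR. With the batch as a block the unadjusted p was 0.0559, and with the chromosome median taken out the log2 fold change was 0.49.

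*Rab24*, a Rab linked to autophagy, was near the limit of the test, with 2 and 8 reads in scrambled 1 and 2 against 10 and 13 in knockdown 1 and 2. Its log2 fold change of 1.39 ± 0.553 (SE) had an unadjusted p of 0.0191 and an adjusted p of 0.137 in edgeR. It ran from 0.87 to 2.49 with single libraries left out, and with the chromosome median taken out *Rab24* was at 1.17. On the opposite strand, exons of *Nsd1* and *Prelid1* overlap 37.7% of its exon bases, and whether reads were counted by strand is not given in the sources used here. *Rab7b*, a late endosome Rab of lower abundance, had 19.9 and 25.3 normalized counts in scrambled against 30.9 and 22.2 in knockdown. *Rab12*, which acts in the degradation of transferrin receptor, had 127 and 122 against 123 and 129. Both overlapped between the groups, with log2 fold changes of 0.23 ± 0.329 and 0.01 ± 0.164 (SE), which were 0.04 and -0.18 with the chromosome medians taken out. The untested *Rab29* and *Rab38*, close relatives of *Rab32*, are named here after their values were seen. *Rab29*, which acts with the kinase LRRK2 at the Golgi and lysosomes, had no read in scrambled against 7 and 1 in knockdown 1 and 2, so 7 of its 8 reads came from 1 library. Set against a limit of 3 counts over a group, these 8 reads stand 3.07-fold higher, which leaves out their own counting error. Without knockdown 1 the 1 read left is under that limit and no fold can be given. *Rab38* had 2 reads in each scrambled library and none in knockdown, 1.16-fold lower against the same limit, again without the counting error of its reads. With either scrambled library left out, the 2 reads left are under that limit and no fold can be given. At these depths neither difference was tested.

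**Figure D2:**
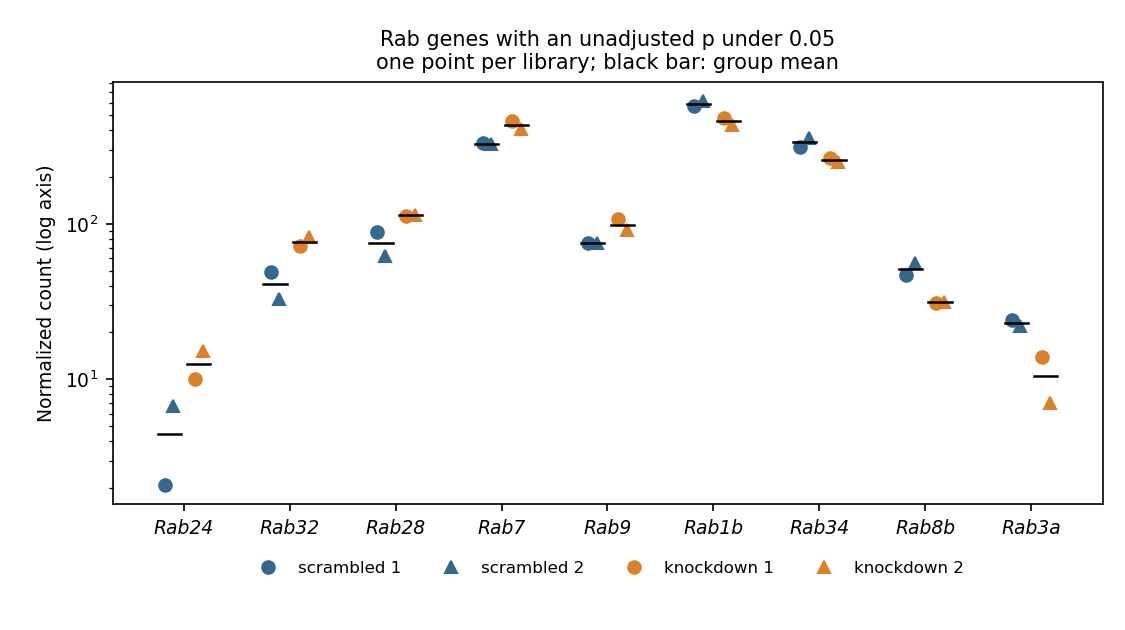
Normalized counts (log axis) of the 9 tested Rab genes with an unadjusted p under 0.05, 1 point per library, with bars at the group means. The 5 genes on the left are higher in both knockdown libraries than in both scrambled ones and the 4 on the right are lower, with the widest spread in *Rab24* and *Rab3a*, which have the fewest reads.

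The early endosome group has 7 members, of which 6 were tested and none had an unadjusted p under 0.05. Their log2 fold changes ran from -0.08 to 0.32 with a median of 0.19, which was 0.03 with the chromosome medians taken out and 0.05, with 3 positive and 3 negative members, without scrambled 1. *Rab5a*, *Rab5b* and *Rab5c*, whose products drive fusion of early endosomes, were given mostly by *Rab5c*, with 213 and 285 reads in scrambled 1 and 2 against 228 and 179 in knockdown 1 and 2. The log2 fold changes of *Rab5a*, *Rab5b* and *Rab5c* were -0.06 ± 0.328, 0.28 ± 0.302 and -0.08 ± 0.149 (SE), each within its error of 0. *Rab31*, a Rab of Golgi to endosome transport, had normalized counts of 155 and 179 in scrambled against 229 and 190 in knockdown, which did not overlap. It had the highest value of the group, 0.32 ± 0.162 (SE), with an unadjusted p of 0.0595 and an adjusted p of 0.252 in edgeR, and it was 0.17 without knockdown 1. *Rab22a*, its close paralogue at early endosomes, had 0.27 ± 0.23 (SE). With the chromosome medians taken out, *Rab31* was at 0.13, *Rab5b* at 0.04, *Rab5a* at -0.26 and *Rab22a* at 0.32.

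Of the 9 recycling members, 5 were tested and none had an unadjusted p under 0.05. Log2 fold changes lay between -0.20 and 0.26, with a median of 0.05. Without knockdown 2 this median was -0.026, with 2 members positive and 3 negative. *Rab14*, which carries cargo between the Golgi and endosomes, had the most reads of this group, and its normalized counts were 222 and 225 in scrambled against 216 and 243 in knockdown. The values were -0.20 ± 0.257 (SE) for *Rab11a*, the Rab of the recycling endosome, and 0.05 ± 0.167 for *Rab11b*. With single libraries left out, *Rab11a* ran from -0.406 to -0.033 and *Rab11b* from 0.017 to 0.084. *Rab35*, which controls fast recycling to the plasma membrane, had 0.26 ± 0.189 (SE), with 101 and 98.5 in scrambled against 97.7 and 143 in knockdown. Only knockdown 2 stood above the scrambled libraries in *Rab35*, and with the chromosome median taken out the value was 0.03. *Rab4a*, which returns receptors from early endosomes, is outside the rule for named genes and was picked for its spread. It had 17 and 33 reads in scrambled against 39 and 11 in knockdown, with log2 differences of 1.10 in batch 1 and -1.08 in batch 2, and its 95% interval ran from -0.65 to 1.05.

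The ER and Golgi group has 12 members, of which 6 were tested, 2 with a positive and 4 with a negative log2 fold change. *Rab1b*, needed for ER to Golgi traffic, had normalized counts of 571 and 616 in scrambled against 479 and 433 in knockdown. The groups did not overlap, and the log2 fold change was -0.38 ± 0.137 (SE), with an unadjusted p of 0.0119 and an adjusted p of 0.107 in edgeR. The median on chromosome 19, where *Rab1b* lies, was -0.23, and with it taken out the value was -0.15 with an adjusted p of 0.686. Its paralogue *Rab1a* had 587 and 509 in scrambled against 509 and 531 in knockdown, and its log2 fold change was -0.08 ± 0.138 (SE), and other exons overlap 36.7% of its exon bases on the opposite strand. *Rab2a*, which acts at the cis-Golgi, had 461 and 500 against 525 and 572, with 0.19 ± 0.136 (SE). *Rab6a*, the Rab of retrograde transport within the Golgi, had 139 and 157 against 118 and 125, with -0.29 ± 0.164 (SE). For *Rab2a* and *Rab6a* the groups did not overlap, but the unadjusted p-values in edgeR were 0.183 and 0.093. The median of the group was -0.12, and with the chromosome medians taken out it was 0.01, with 3 members positive and 3 negative. Without scrambled 2 the median of the group was -0.19.

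The exocytic group had the lowest median, -0.46 over 7 tested of 12 members, and 6 of the 7 were negative. With the chromosome medians taken out this median was -0.25, and it was -0.20 over the 5 members with at least 10 counts in every library. *Rab3a*, which regulates the release of secretory vesicles and the repair exocytosis of lysosomes, had 23 and 26 reads in scrambled 1 and 2 against 14 and 6 in knockdown 1 and 2. Its log2 fold change was -1.09 ± 0.404 (SE), with an unadjusted p of 0.014 and an adjusted p of 0.116 in edgeR. It was -0.71 without knockdown 2, -1.69 without knockdown 1 and -1.01 with the chromosome median taken out. *Rab8b*, which with *Rab8a* brings vesicles from the Golgi to the plasma membrane, had normalized counts of 47.2 and 55.6 in scrambled against 30.9 and 31.6 in knockdown. The groups did not overlap, and the log2 fold change was -0.72 ± 0.258 (SE), with an unadjusted p of 0.0112 and an adjusted p of 0.104 in edgeR. Chromosome 9, on which *Rab8b* lies, had a median of -0.37, and with it taken out the value was -0.36. *Rab8a* had 130 and 163 in scrambled against 158 and 147 in knockdown, and its log2 fold change was 0.06 ± 0.167 (SE), or 0.14 with the chromosome median taken out. Without knockdown 2, which held 3 reads of *Rab3d* where the other libraries held 21 each, the median of this group was 0.08 and 4 of 7 members were positive. *Rab3d* was picked for that spread.

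Of the remaining 10 members 4 were tested. *Rab28*, a Rab of the photoreceptor and cilium, had 85 and 74 reads in scrambled 1 and 2 against 113 and 97 in knockdown 1 and 2. Its normalized counts of 89.1 and 62.3 lay below the 113 and 114 of knockdown, and the log2 fold change was 0.59 ± 0.194 (SE), with an unadjusted p of 0.00632 and an adjusted p of 0.0752 in edgeR. Without scrambled 1 the value was 0.86 with an adjusted p of 0.0147, and without scrambled 2 it was 0.34, while with the median of chromosome 5 (0.23) taken out it was 0.36, so the size of the difference depended on the scrambled library and on that median. *Rab34* had normalized counts of 310 and 358 in scrambled against 264 and 249 in knockdown. Its log2 fold change was -0.38 ± 0.147 (SE), with an unadjusted p of 0.0178 and an adjusted p of 0.132 in edgeR, and the groups did not overlap. With the chromosome median taken out *Rab34* was at -0.27, and with single libraries left out it ran from -0.48 to -0.28. Exons of *Gm73750* and *Gm73758* overlap 36.7% of its exon bases on the opposite strand.

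The routes were also compared as shares of the Rab reads of a library, which do not depend on the normalization. The late endosome group took 13.3% and 12.6% of Rab reads in scrambled 1 and 2 (exact 95% binomial intervals 12.3% to 14.3% and 11.8% to 13.5%) and 17.1% and 16.3% in knockdown 1 and 2 (16.0% to 18.2% and 15.1% to 17.5%). The mean difference was 3.75 percentage points, larger than the SD within either group, which was at most 0.566 points over 2 libraries. The ER and Golgi group took 41.7% and 41.2% in scrambled against 37.2% and 38.9% in knockdown, a mean difference of -3.4 points. The early group lay higher by 1.15 points and the exocytic group lower by 1.1 points, with smaller gaps between the libraries of the groups, and the remaining members lay lower by 0.765 points, from 10.4% to 9.59% in the mean. The recycling shares overlapped, so 5 of 6 routes did not. Over all genes tested, the normalized counts of 52.4% did not overlap either. These shares sum to the whole, so a higher share of a route lowers the others. Per counted read of the library the late endosome group was at 417 CPM in both scrambled libraries against 591 and 521 in knockdown, and the ER and Golgi group at 1310 and 1364 against 1288 and 1244. The recycling group was at 340 and 358 against 372 and 379 CPM, while the other 3 overlapped. With 2 libraries against 2 an exact permutation test of any of these shares cannot give a two-sided p below 0.333. *Rab7* made up 316 and 386 of the 579 and 700 late endosome reads of scrambled 1 and 2. It made up 462 and 349 of the 812 and 640 of knockdown 1 and 2, so most reads of this route in every library came from *Rab7*. Its log2 fold change was 0.41, and 0.13 with the median of chromosome 6 taken out, while the shares were not adjusted for chromosome medians. Binomial intervals cover counting error only.

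**Figure D3:**
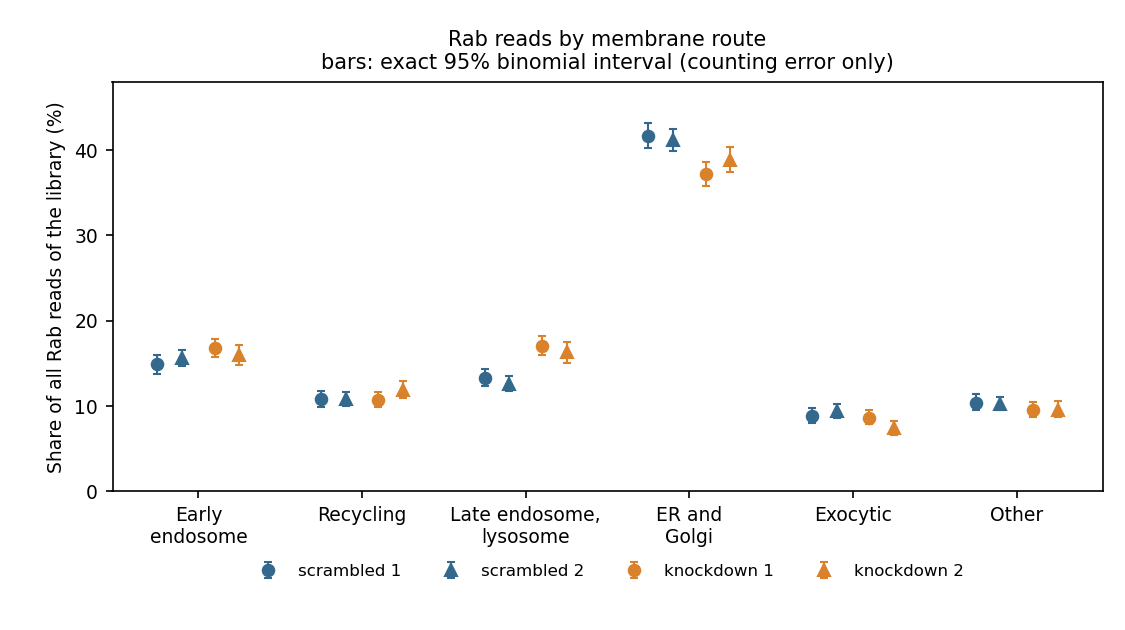
Share of all Rab reads of a library (y axis, percent) by membrane route, 1 point per library with exact 95% binomial intervals. The late endosome share lies at 12.6% to 13.3% in scrambled and 16.3% to 17.1% in knockdown, and the ER and Golgi share at 41.2% to 41.7% and 37.2% to 38.9%.

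Close paralogues can share functions, so the share of each in the reads of its subfamily was computed for subfamilies with at least 100 reads in each library. *Rab8b* took 26.6% and 25.5% of *Rab8* reads in scrambled 1 and 2 (exact 95% binomial intervals 20.1% to 34% and 20.3% to 31.2%) and 16.3% and 17.6% in knockdown 1 and 2 (11.4% to 22.4% and 12% to 24.6%). The groups did not overlap, but the intervals of single libraries did. *Rab8b* and *Rab8a* lie on chromosomes 9 and 8, with medians of -0.37 and -0.08, and the shares were not adjusted for these. *Rab8a* and *Rab8b* are identical in 83.6% of residues and 77.9% of coding bases. *Rab1b* took 49.3% and 54.7% of *Rab1* reads in scrambled against 48.5% and 44.9% in knockdown, where the gap between scrambled 1 and knockdown 1 was smaller than that between the scrambled libraries. *Rab1a* and *Rab1b* share 92.5% of residues but 77.6% of coding bases. *Rab5c* took 82.9% and 79.8% of *Rab5* reads in scrambled against 79.7% and 77.5% in knockdown, a smaller gap between the groups than between their libraries. In the other subfamilies the shares of the groups overlapped. *Rab6a* took 93.9% to 95.2% of *Rab6* reads and *Rab7* 92.8% to 94.8% of the reads of *Rab7* and *Rab7b*. *Rab11b* took 69.2% to 76.8% of *Rab11* reads and *Rab31* 75.9% to 80.7% of those of *Rab31* and *Rab22a*, while *Rab2b* had no read beside *Rab2a*.

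**Figure D4:**
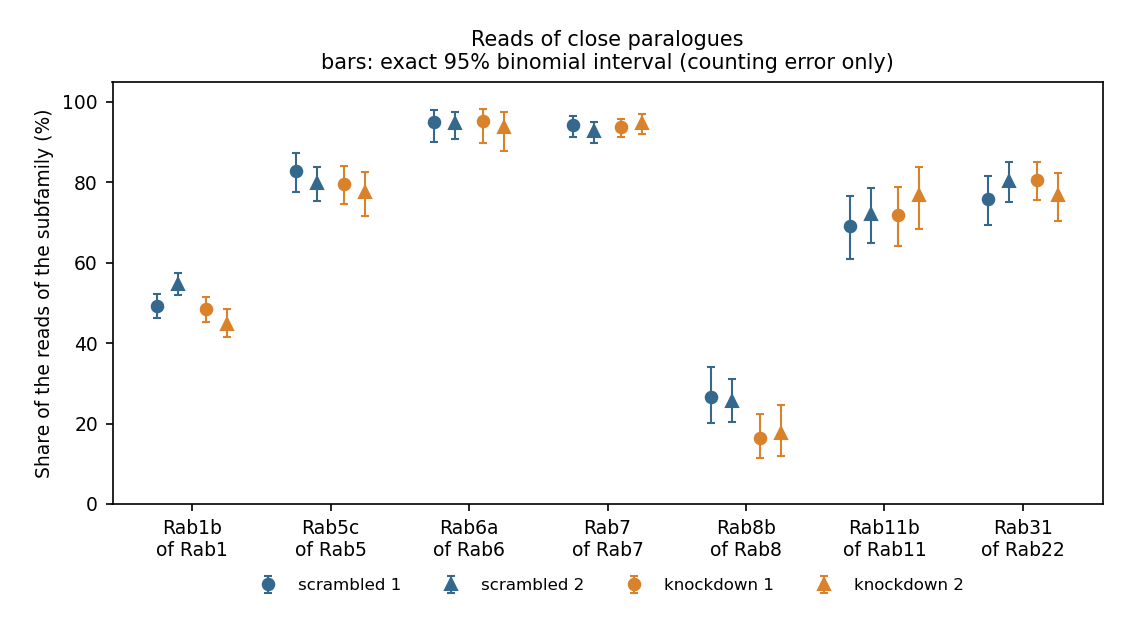
Share of the reads of a subfamily taken by 1 paralogue (y axis, percent), 1 point per library with exact 95% binomial intervals. *Rab8b* lies at 25.5% and 26.6% of *Rab8* reads in scrambled and at 16.3% and 17.6% in knockdown, while *Rab6a*, *Rab7*, *Rab11b* and *Rab31* overlap between the groups.

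The partners of the Rab proteins were described with 7 lists of 157 genes, of which 108 were tested. Of these 57 had a positive log2 fold change, the median was 0.04, and 2 were called (1.85%, against 5.55% of all genes). *Rin2*, an exchange factor for Rab5 proteins, had 28 and 37 reads in scrambled 1 and 2 against 77 and 72 in knockdown 1 and 2. It rose 2.64-fold, a log2 fold change of 1.40 ± 0.231 (SE) with an adjusted p of 0.00104 in edgeR, and the value was 1.37 in batch 1 and 1.42 in batch 2. The adjusted p was under 0.05 in 12 of 13 alternatives and 0.0794 without knockdown 1, where the log2 fold change was 1.47. *Yipf1*, a Golgi membrane protein of the Yip family that binds Rab GTPases, had 143 and 170 reads in scrambled against 96 and 85 in knockdown. It fell, with a log2 fold change of -0.59 ± 0.166 (SE) and an adjusted p of 0.0418 in edgeR, which was 0.0508 with the batch as a block and between 0.0352 and 0.616 over the alternatives, under 0.05 in 4 of 13. Over these alternatives its log2 fold change stayed between -0.62 and -0.52. An unadjusted p under 0.05 was reached by 16 partner genes (14.8%) against 21.8% of all genes, 6 higher and 10 lower.

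By role, the median log2 fold change was -0.09 for 10 delivery and prenylation genes, -0.09 for 30 exchange factors and 0.14 for 25 GTPase-activating proteins. For effectors it was 0.11 over 10 early endosome, -0.16 over 7 recycling, 0.21 over 14 late endosome and 0.14 over 12 secretory genes. In each list, values of both signs were present.

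**Figure D5:**
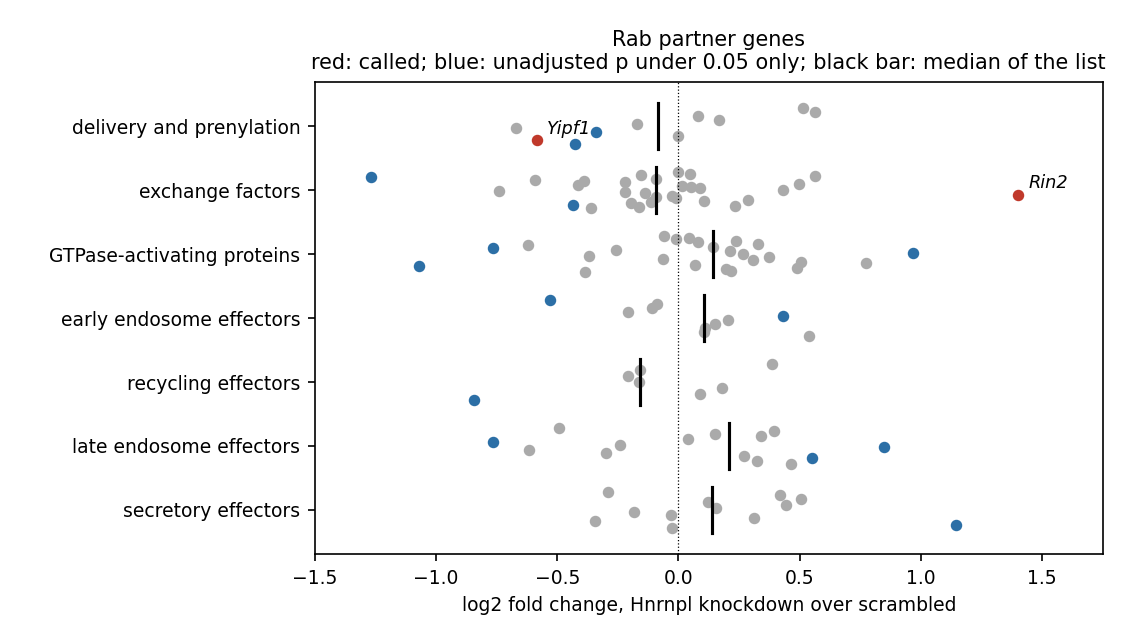
Log2 fold change of knockdown over scrambled (x axis) for the 108 tested partner genes by role, 1 point per gene, with a bar at the median of each list. Only *Rin2* and *Yipf1* (red) were called, and the medians lie between -0.16 and 0.21.

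Members with few or no reads complete the family. No read was counted for *Rab25* and *Rab17*, which act in epithelial cells, for *Rab3c* and *Rab37* of regulated secretion, or for *Rab2b*, *Rab4b*, *Rab9b*, *Rab15*, *Rab19*, *Rab33a*, *Rab39* and *Rab44*. A count of 0 allows up to 3 reads, which is 1.79 to 2.44 CPM in these libraries, so low levels were not detectable at this depth. Other annotated exons overlap 64.1% of the exon bases of *Rab4b* on the same strand (*Gm21983* and *Mir3101*). They overlap 50.5% of those of *Rab2b*, with *Tox4* on the opposite strand. Of all reads, 16.0% to 16.5% were set aside as ambiguous between genes and 22.7% to 23.8% for low mapping quality. The part of these in the counts of 0 was not tested. The 13 members with reads but no test had at most 10 reads in a library.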

How the data were processed

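Whole read counts per gene were used as the authors deposited them. Per the labels and the methods of the study, reads were basecalled with guppy, mapped to GRCm39 with minimap2 2.17 and counted with HTSeq 0.9.1. The annotation release and strand setting are not given in the sources used here. Reads that HTSeq assigned to no gene (42.2% to 43.5% of a library) stayed out of library sizes. Of 56748 gene IDs, 56017 were matched to GENCODE vM39 (GRCm39), which gave symbols, positions, coding sequences and exon overlaps. Transcript alignments used minimap2 2.31.

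Knockdown and scrambled were compared in edgeR 4.0.16 (R 4.3.3) with TMM, filterByExpr and the quasi-likelihood test over all genes, Benjamini-Hochberg adjusted. The script was tested on simulated data. Normalized counts are TMM-scaled counts at the mean library size. Group values have 2 libraries each.

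The family and lists were chosen with earlier results of these data known, while membership follows the gene symbol alone. Named genes are *Hnrnpl*, called members and partners, members with an unadjusted p under 0.05, the highest, lowest and most abundant member of each route, and subfamilies with at least 100 reads per library. Others were named after their values were seen.

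The replicate number is the batch in the sample labels, which pairs the libraries. Deviations of same-numbered libraries had a correlation of 0.0141 over 3711 genes. The chi-square per gene between replicates was 2.40 for scrambled and 2.59 for knockdown. Alternatives were upper quartile or RLE factors, testing without a filter or with 10 or more counts per library, a robust fit, the replicate block, DESeq2 1.42.0 (local and parametric), chromosome medians as an offset, 2 other thresholds and each library left out.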

Additional observations from a re-analysis of the deposited data

Results flagged for a closer look

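Reads were present on antisense genes named after Rab genes, which are no members of the family. *Rab26os*, on chromosome 17 (forward strand) from 24747178 to 24747726, inside the span of *Rab26*, had 30 and 36 reads in scrambled 1 and 2 against 50 and 38 in knockdown 1 and 2, 154 in all. *Rab26* itself had 2 reads in all, so more reads were counted on the antisense gene than on the coding gene. The log2 fold change of *Rab26os* was 0.62 ± 0.262 (SE), with an adjusted p of 0.173 in edgeR. *Rab10os*, on chromosome 12 (forward strand) from 3285055 to 3301677, overlaps *Rab10* on the reverse strand and had 37 reads in all, between 8 and 12 per library. Both lie above the limit of 3 counts that a count of 0 allows. Whether reads were counted by strand is not given in the sources used here, so reads of *Rab10os* and *Rab10*, which share exon bases, may not be told apart, while *Rab26os* shares none with *Rab26* in the annotation used.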

How the results depend on the processing

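Over 27 named genes and 349 values under alternatives, 315 kept direction and side of the threshold, and 16 genes never changed sign. With the replicate block the count of members called higher was 1 and 26 of 27 named genes kept their call, with *Yipf1* the exception at an adjusted p of 0.0508. Members called higher were 0 with DESeq2 (local and parametric) and with chromosome medians as an offset, 2 at an adjusted p under 0.1, and 0 to 2 with single libraries left out. Members called lower were 0 in each of these. DESeq2 gave a p-value to 47 members, while the main edgeR fit and that with chromosome medians tested 34. Members with an unadjusted p under 0.05 were 5 with DESeq2 local, 3 with DESeq2 parametric, 4 with chromosome medians and 4 to 9 with a library left out (4 without scrambled 2). Partner genes called were 1 with upper quartile factors, with DESeq2 local, with DESeq2 parametric and with chromosome medians, and 0 to 2 with a library left out (0 without knockdown 1). The *Hnrnpl* log2 fold change was -0.78 at an adjusted p of 0.062 with DESeq2 parametric and -1.03 to -0.47 with a library left out, with adjusted p-values of 0.164 without scrambled 2 and 0.283 without knockdown 1. Over all genes 481 were called, against 229 and 112 with DESeq2 local and parametric, 285 with chromosome medians and 20 without knockdown 1. With chromosome medians as an offset the sign reversed for *Rab5c* (0.024), *Rab12* (-0.18), *Rab11a* (0.17), *Rab1a* (0.034) and *Rab11b* (-0.14). With single libraries left out it reversed within the ranges of *Rab1a* (-0.18 to 0.029), *Rab8a* (-0.086 to 0.23), *Rab5b* (-0.008 to 0.70), *Rab12* (-0.020 to 0.047), *Rab5a* (-0.28 to 0.14), *Rab7b* (-0.039 to 0.44), *Rab35* (-0.026 to 0.52) and *Rab14* (-0.047 to 0.12). The cause was not tested. Over 13 alternatives the median of the late endosome group was 0.29 to 0.49 and that of the exocytic group -0.71 to 0.08, and 5 or 6 late endosome members were positive. With 2 libraries per group, small differences of low genes were not detectable at this depth.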

Other observations

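Further partner genes with an unadjusted p under 0.05 but no call were picked after their values were seen. They are some of the 16 partner genes with such a p in edgeR, 6 higher and 10 lower, the called ones included. *Optn*, encoding optineurin, an autophagy receptor that binds Rab8, had 10 and 27 reads in scrambled 1 and 2 against 26 and 44 in knockdown 1 and 2, a log2 fold change of 1.14 ± 0.389 (SE). Its adjusted p in edgeR was 0.0875, and it was called with the batch as a block (adjusted p = 0.0272), with no filter and without scrambled 2. *Rubcn*, which encodes a Rab7 binding protein of the autophagy pathway, had 20 and 30 reads in scrambled against 42 and 36 in knockdown. Its log2 fold change was 0.85 ± 0.287 (SE), with an adjusted p of 0.0871 in edgeR, and the median of its chromosome was 0.30. *Rilpl1*, of the same list of late endosome effectors, was lower, at -0.77 ± 0.336 (SE) with an adjusted p of 0.187 in edgeR. *Tbc1d4*, a GTPase-activating protein of glucose transporter vesicles in muscle, had 12 and 15 reads in scrambled against 5 and 6 in knockdown, and its log2 fold change was -1.07 ± 0.486 (SE). Its unadjusted p of 0.0375 (adjusted p 0.197) in edgeR was 0.0588 with the batch as a block. *Dennd2a*, an exchange factor of Rab9, had 16 and 29 reads in scrambled against 11 and 5 in knockdown, and its log2 fold change was -1.27 ± 0.437 (SE). Its adjusted p in edgeR was 0.0899, and it was called without scrambled 1.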
